A study of Homo sapiens with 6 samples.

Results

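The genes described here encode the machinery with which the endoplasmic reticulum takes in, folds and clears proteins. Of 44 listed genes, 39 had a row of their own in the deposited table, out of 27589 rows that name a gene. Their rows were matched by exact gene symbol and not by any measured value, but the list was chosen with earlier results of these data known. PDIA5, DNAJB11, SYVN1 and SSR1 were counted only in rows merged with neighbouring genes, and EDEM3 was not analysed here. All 39 passed the expression filter, at least 1 FPKM (counts scaled to the row's length and the library total) in at least 3 of the 6 libraries.

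Polyadenylated RNA was sequenced from MDA-MB-231, a human triple-negative breast cancer line with mesenchymal features. Cells transfected with a mimic gave 3 libraries, and control cells gave the other 3. A mimic is a short synthetic duplex that stands in for a mature microRNA. The labels do not say which microRNA it copies, although miR-5001-5p and TNF-α appear in the title, and they give no dose, time or oligonucleotide sequence for either group. The comparison asks which genes and pathways lie downstream of the mimic. Control libraries are titled with the suffix nc, which is not spelled out, so whether control cells received an oligonucleotide is not known from the labels. A higher level in mimic therefore cannot be told apart from a lower level in control. Rose and fell are used below only for mimic relative to these controls.

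Library totals were 31643826 to 32363456 counts. Log2 counts scaled to library size (CPM) correlated across genes at 0.988 to 0.990 within groups and at 0.977 to 0.980 between them. The labelled line was checked against its markers: VIM had a control mean of 449 FPKM and CD44 one of 12.1, ERBB2 had 4.43, and the epithelial genes CDH1, EPCAM and KRT5 had means of at most 0.149 in either group. ESR1 shared a merged row with a mean of at most 0.0198 FPKM, and PGR was not analysed here. No label says that replicates were separate cultures, so p-values measure only the spread between these libraries, which may be technical. In RNA from bulk cells, fewer cells of a kind and less RNA per cell cannot be told apart.

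As background, most secreted and membrane proteins enter the endoplasmic reticulum through the SEC61 channel, lose their signal peptide to signal peptidase, and fold with the help of chaperones, disulfide isomerases and the calnexin and calreticulin lectins. Proteins that fail to fold are drawn back to the cytosol and degraded. When unfolded protein accumulates, the sensors IRE1 (gene ERN1), PERK (EIF2AK3) and ATF6 start the unfolded protein response, in which ATF6 and the transcription factor XBP1 raise transcription of chaperone and degradation genes. Secretory cells and many carcinoma cells lean on this response.

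As a whole the genes stood higher in the mimic libraries. In edgeR's quasi-likelihood test, with Benjamini-Hochberg adjusted p under 0.05 over all 11260 rows tested, 18 of the 39 were higher and 2 lower in mimic, and 19 did not pass. Across all tested rows 13.6% were called higher and 8.63% lower. The median log2 fold change was 0.27 for the 39 genes and -0.01 for all rows. Together the 39 genes took 0.722, 0.678 and 0.689% of each control library's counts and 0.922, 0.913 and 0.916% of each mimic library's. The groups did not overlap in this sum. Genes with many reads, such as HSPA5, CANX and HSP90B1, weigh most in it, so it does not describe each of the 39. All of these named genes were called higher, but the CANX call ended when any mimic library was left out, as given below. In FPKM the groups did not overlap for 24 of the 39 genes, the 20 called ones among them, against 45.9% of all tested rows. For each of the 20 alone the exact two-sided permutation p was 0.1, which is as low as 3 libraries against 3 can reach. The deposited FPKM are scaled to library totals, whereas fold changes here use TMM scaling (edgeR's trimmed mean of M-values), which lies 0.08 higher on the log2 scale at the median of all rows; with total scaling 18 were higher and 3 lower.

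**Figure D1:**
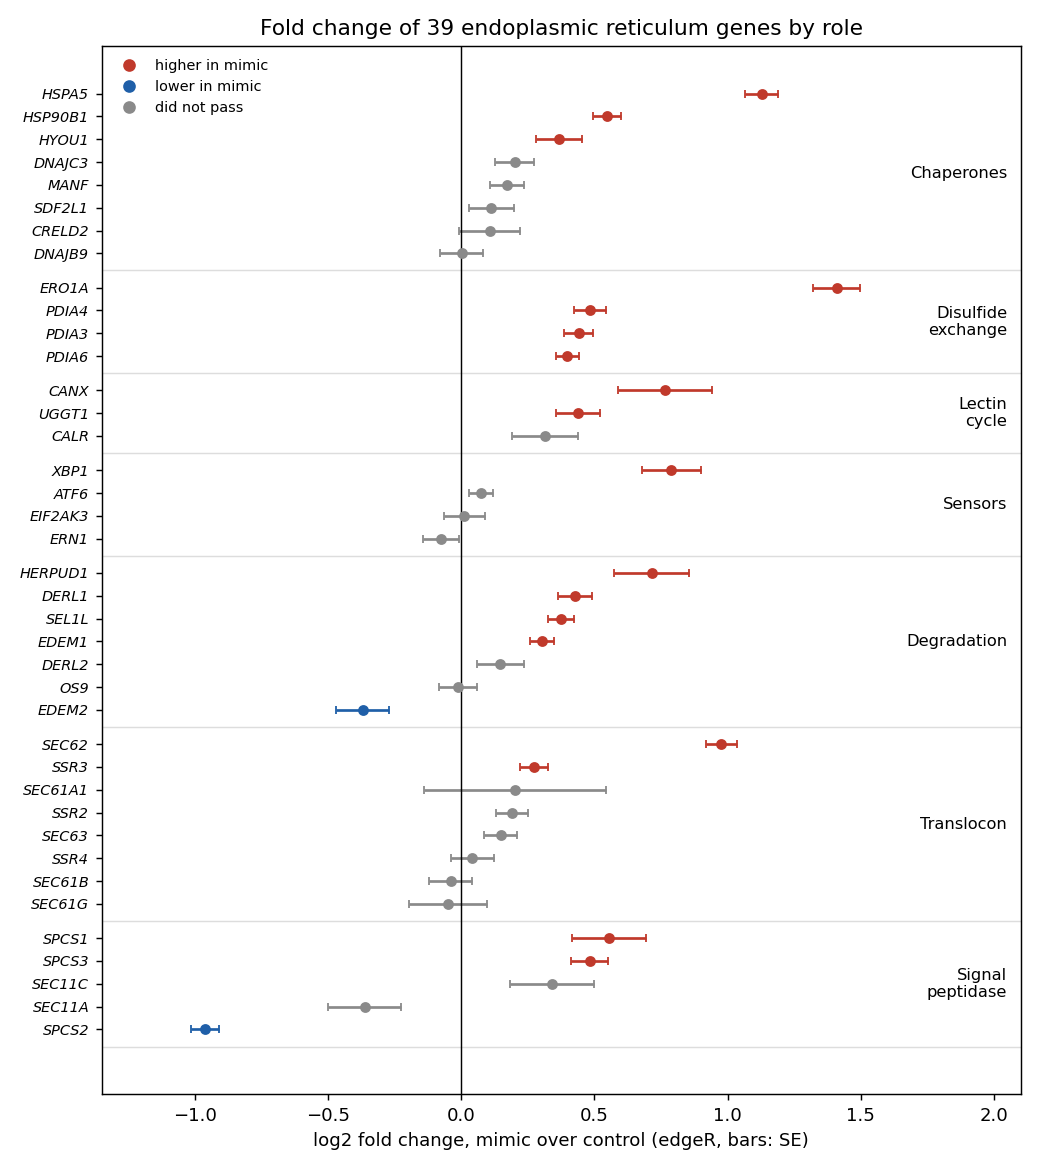
Log2 fold change, mimic over control, of the 39 genes grouped by role, from edgeR with 3 libraries a group; bars are standard errors. The 4 disulfide exchange genes plotted are called higher, while the signal peptidase genes lie on both sides of 0, from -0.96 for SPCS2 to 0.55 for SPCS1.

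Promoter letters known from this response were looked up first, because they are the shared sequence feature of its best studied targets. The endoplasmic reticulum stress element, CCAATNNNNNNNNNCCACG, and its second form, ATTGGNCCACG, were searched on both strands in windows from 250 bases before to 50 after each gene's start (RefSeq, GRCh38.p14). Windows were found for 36 of the 39 genes, with 1 window used per gene. Any other start of the same gene was not searched, so a gene without an element here may hold one elsewhere. An element lay in 9 of these 36 windows (25.0%) and in 37 of 27305 windows of all genes (0.136%). The first form was in 6 of the 36 and 0.0806% of all, the second in 3 of the 36 and 0.0549% of all. The element was described in promoters of this very gene family, so its presence here is no new observation. The elements of the called genes are shown with 6 flanking bases, on the gene's strand, the element in capitals; some read as the reverse complement.
HSPA5, chr9:125241385-125241415, minus strand: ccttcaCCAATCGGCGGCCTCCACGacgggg
HSP90B1 upstream, chr12:103930210-103930240, plus strand: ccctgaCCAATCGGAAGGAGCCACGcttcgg
HSP90B1 downstream, chr12:103930315-103930345, plus strand: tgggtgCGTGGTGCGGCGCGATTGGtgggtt
XBP1, chr22:28800597-28800627, minus strand: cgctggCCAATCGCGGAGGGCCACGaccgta
CANX, chr5:179698772-179698802, plus strand: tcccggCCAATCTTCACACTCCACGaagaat
HERPUD1, chr16:56932019-56932041, plus strand: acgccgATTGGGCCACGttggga
HYOU1 upstream, chr11:119057374-119057396, minus strand: ccgtgaCGTGGTCCAATcccagg
HYOU1 downstream, chr11:119057268-119057290, minus strand: ctgggaCGTGGTCCAATgagtac
These 6 genes were all higher in mimic. The other three genes with an element, CALR, SDF2L1 and CRELD2, did not pass the test. Their log2 fold changes were 0.31 ± 0.12 (SE; edgeR adjusted p = 0.114), 0.11 ± 0.08 (adjusted p = 0.377) and 0.11 ± 0.11 (adjusted p = 0.546). Of the 27 genes with a window and no element 9 were higher and 2 lower, with a median of 0.17 against 0.55 for the 9 with one. The core letters ACGTGG, which the XBP1 protein is known to bind and which can overlap the end of either element, were in 12 of the 36 windows and 9.91% of all.

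Letters in the 3′ UTR, where microRNAs bind, were looked up next (GENCODE 29, longest annotated 3′ UTR of each gene). Mature miR-5001-5p, the microRNA of the series title, is shown 5′ to 3′ from RefSeq with its seed, bases 2 to 8, in capitals, and a site in HSPA5 with the matching letters in capitals.
miR-5001-5p, chr2:232550530-232550553, minus strand: aGGGCUGGacucagcggcggagcu
HSPA5 3′ UTR, chr9:125235251-125235280, minus strand: accactgtactCCAGCCCggcactccagcc
The seed match CCAGCCC was in the 3′ UTR of 8 of the 39 genes (20.5%), against 23.1% of 9063 tested genes with a 3′ UTR. Of these 8 genes, HSPA5, HYOU1 and UGGT1 were higher, and ERN1, DERL2, SEC61A1, SSR2 and SSR4 did not pass. Their median log2 fold change was 0.20, and that of the 31 genes without the match 0.30.

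The heptamers AGTACAA and GTACAAA were also searched, since an earlier scan of these same fold changes had singled them out; a tie between them and higher values is therefore built in and no independent support. Of the 39 genes, 8 carried either (20.5%), against 17.2% of tested genes with a 3′ UTR. ERO1A, SEC62, SPCS1, SPCS3, PDIA3 and UGGT1 of these 8 were higher in mimic, and SEC63 and ATF6 did not pass. The median log2 fold change was 0.46 for the 8 and 0.20 for the 31 genes with neither. Over all tested genes 580 of the 1556 with either heptamer were higher and 40 lower, against 812 and 793 of the 7507 with neither. Sites of the genes with the highest fold change among the 8 are shown in 30 bases of 3′ UTR, with the heptamer, or the run of 8 that holds both, in capitals.
ERO1A first site, chr14:52643332-52643361, minus strand: ttaataatgtgGTACAAAttttaaagttta
ERO1A second site, chr14:52642705-52642734, minus strand: gtttcaaaaatAGTACAAAgagctctctta
SEC62 first site, chr3:169993081-169993110, plus strand: ctgaatgaataAGTACAAgaggttggattt
SEC62 second site, chr3:169994927-169994956, plus strand: tacagaatgttAGTACAAAtttttataaat
SEC62 last site, chr3:169998001-169998030, plus strand: aagttactgctAGTACAActgtggattgtt
None of the 9 genes with a promoter element carried either heptamer. A fit over only the genes with neither heptamer called 13 of the 31 members in it higher and 2 lower.

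**Figure D2:**
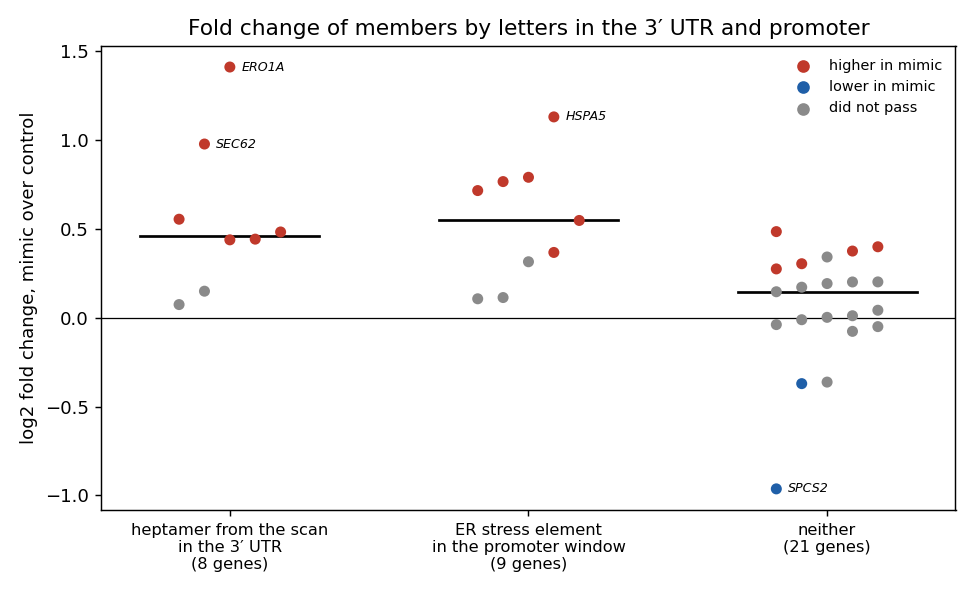
Log2 fold change, mimic over control, of 38 genes in 3 columns, each point a gene and each line the median: 8 genes with a heptamer from the scan in the 3′ UTR, 9 with a stress element in the promoter window, and 21 with neither. DERL1, which has no promoter window and no heptamer, is left out; ERO1A and SEC62 top the first column, HSPA5 tops the second, and SPCS2 is lowest in the third.

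Among the chaperones, HSPA5, HSP90B1 and HYOU1 rose and the other five measured did not pass. HSPA5 encodes BiP, the HSP70 of the lumen, which also holds the 3 sensors inactive. The gene (ENSG00000044574) lies on chromosome 9 from 125234853 to 125241330 of GRCh38. Its level was 135, 124 and 141 FPKM in the control libraries and 295, 267 and 268 in the mimic libraries, means of 133 ± 8.66 and 276 ± 15.7 (SD, n = 3 each). The lowest mimic library was well above the highest control, and the fold change was 2.19 (log2 1.13 ± 0.06 SE, edgeR adjusted p = 9.18e-05). It was the gene of highest mean level in mimic among the 39. HSP90B1 encodes GRP94, the lumenal HSP90, and stood at 173, 186 and 171 FPKM in control and 242, 257 and 236 in mimic (1.46-fold, log2 0.55 ± 0.05, adjusted p = 0.000758). Both groups were tight, with no overlap.

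HYOU1 encodes a large HSP70-related protein that exchanges the nucleotide of BiP. It measured 37.7, 37.3 and 30.8 FPKM in control and 41.6, 42.7 and 44.9 in mimic (log2 0.37 ± 0.08, edgeR adjusted p = 0.0233), with control replicate 3 the lowest. Its call ended without mimic replicate 2 (adjusted p = 0.0617) or 3 (0.0614), with the replicate number as a block (0.0619) and in limma on log2(FPKM + 0.1) (0.0511). The chaperone genes that did not pass had log2 fold changes from 0.00 to 0.20, and the merged row AC068631.2/DNAJB11/AC068631.3 one of 0.04 ± 0.09. They include DNAJB9 and DNAJC3, BiP cochaperones of the J-domain family, the first at 12.7, 11.7 and 13.8 FPKM in control and 12.6, 11.8 and 11.8 in mimic (log2 0.00 ± 0.08, adjusted p = 0.991). MANF, a secreted BiP-binding factor, did not overlap between groups, at 19.9 ± 0.844 and 21.2 ± 0.441 FPKM (log2 0.17 ± 0.06, adjusted p = 0.102). CRELD2, a lumenal protein with isomerase motifs, was near the filter at 1.77, 1.94 and 1.78 FPKM in control and 2.00, 1.94 and 1.67 in mimic. SDF2L1, which forms a complex with J-domain proteins, overlapped between groups at 37.2 ± 3.29 and 38.1 ± 1.40 FPKM.

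ERO1A, PDIA3, PDIA4 and PDIA6, the 4 members of disulfide exchange with a row of their own, rose. These enzymes form and shuffle the disulfide bonds of folding proteins. Other genes of the same kind, held in the list of other folding enzymes, did not all do so: P4HB, the founding isomerase, had a log2 fold change of 0.23 ± 0.08 (edgeR adjusted p = 0.076), ERO1B one of 0.13 ± 0.08 (0.294) and ERP29 one of -0.24 ± 0.08 (0.0653). ERO1A encodes the oxidase that recharges the isomerases and is also known to respond to hypoxia; it lies on chromosome 14 from 52639916 to 52695900. ERO1A had the largest fold change of the 39 genes, from 9.96, 10.5 and 9.56 FPKM in control to 25.0, 28.2 and 22.4 in mimic (2.66-fold, log2 1.41 ± 0.09, edgeR adjusted p = 0.00014). The mimic libraries spread more than the control libraries but stayed above all of them. Its 3′ UTR holds the pair of sites printed above.

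The isomerases moved by less. PDIA4 measured 22.1, 23.7 and 24.1 FPKM in control and 30.9, 29.9 and 31.9 in mimic (1.40-fold, log2 0.48 ± 0.06, edgeR adjusted p = 0.0022). PDIA3, which pairs with calnexin and calreticulin on glycoproteins, measured 73.3, 79.5 and 82.6 in control and 103, 102 and 97.7 in mimic (1.36-fold, log2 0.44 ± 0.05, adjusted p = 0.00211). PDIA6, which also binds the sensor IRE1, measured 89.1, 85.8 and 85.8 in control and 105, 112 and 109 in mimic (1.32-fold, log2 0.40 ± 0.04, adjusted p = 0.0012). In all 3 genes the groups were separate and close to each other in fold change. PDIA3 has a processed copy, PDIA3P1, that could share reads; it held 2886 counts over the 6 libraries and a log2 fold change of 0.29 (adjusted p = 0.0887). The merged row PDIA5/SEC22A stood at a log2 fold change of 0.18 ± 0.07 with adjusted p = 0.111.

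In the lectin cycle, which holds glycoproteins until they are folded, CANX and UGGT1 rose and CALR did not pass. CANX encodes the membrane lectin calnexin and stood at 169, 101 and 162 FPKM in control and 233, 239.5 and 223 in mimic (1.70-fold, log2 0.76 ± 0.18, edgeR adjusted p = 0.0237). Control replicate 2 lay far below the other two controls. Without that library the log2 fold change was 0.57 (adjusted p = 0.00227), and the call ended without mimic replicate 1, 2 or 3 (adjusted p = 0.0608, 0.071 and 0.0511). UGGT1, the glucosyltransferase that returns unfolded glycoproteins to the lectins, measured 10.2, 12.3 and 12.3 FPKM in control and 14.5, 15.1 and 15.1 in mimic (1.35-fold, log2 0.44 ± 0.08, adjusted p = 0.0114). CALR, the soluble lectin calreticulin, had the highest mean control level of the 39 genes and overlapped between groups, with 243, 235 and 193 FPKM in control and 282, 222 and 286 in mimic; it passed only without mimic replicate 2 (log2 0.42, adjusted p = 0.0435).

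Of the sensors and their transcription factor, XBP1 alone passed. XBP1 measured 14.3, 16.2 and 12.3 FPKM in control and 23.8, 24.5 and 21.8 in mimic (1.73-fold, log2 0.79 ± 0.11, edgeR adjusted p = 0.0034). Its mRNA must be spliced by IRE1 to give the active factor, and values per gene do not show that splicing. The sensor genes were close between groups: ATF6 at 22.4 ± 0.212 and 22.3 ± 1.06 FPKM (log2 0.07 ± 0.05, adjusted p = 0.304). EIF2AK3, encoding PERK, stood at 6.22 ± 0.310 in control and 5.94 ± 0.326 in mimic (log2 0.01 ± 0.08, adjusted p = 0.938). ERN1, encoding IRE1, had no overlap between groups in FPKM, at 4.01, 3.84 and 4.26 in control and 3.71, 3.53 and 3.65 in mimic, but did not pass (log2 -0.08 ± 0.07, adjusted p = 0.454).

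Among the 7 measured degradation genes 4 rose and 1 fell. HERPUD1, a membrane protein that assembles the retrotranslocation complex, measured 6.39, 4.93 and 5.89 FPKM in control and 9.31, 10.1 and 7.36 in mimic (1.64-fold, log2 0.71 ± 0.14, edgeR adjusted p = 0.0133). DERL1, a derlin of the retrotranslocation channel, measured 14.3, 13.9 and 15.0 in control and 18.5, 17.2 and 19.3 in mimic (1.34-fold, log2 0.43 ± 0.06, adjusted p = 0.00453). SEL1L, the adaptor of the ubiquitin ligase HRD1, measured 16.0, 15.9 and 16.5 in control and 20.8, 19.9 and 18.8 in mimic (1.30-fold, log2 0.37 ± 0.05, adjusted p = 0.00239). HERPUD1 was the most spread of these 3, with its groups nearest at 6.39 and 7.36. The mannosidase-like genes EDEM1 and EDEM2, whose products mark glycoproteins for degradation, went opposite ways. EDEM1 measured 23.0, 22.1 and 21.5 FPKM in control and 26.4, 26.4 and 25.1 in mimic (log2 0.30 ± 0.05, adjusted p = 0.00483). EDEM2 measured 13.1, 13.7 and 11.9 in control and 9.10, 8.98 and 10.2 in mimic (log2 -0.37 ± 0.10, adjusted p = 0.0392).

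The EDEM2 call was weak: it ended without control replicate 1, 2 or 3 (edgeR adjusted p = 0.103, 0.12 and 0.0541), without mimic replicate 1 or 2 (0.101 and 0.103), with no filter (0.0892) and with the replicate block (0.0967). OS9, a lectin that delivers glycoproteins to SEL1L, and DERL2 did not pass, with log2 fold changes of -0.01 ± 0.07 and 0.15 ± 0.09. SYVN1, which encodes HRD1 itself, was merged with the ribosomal gene FAU in a row at 54.1 FPKM in control and 48.1 in mimic (log2 -0.09 ± 0.05, adjusted p = 0.207), so its own level was not seen.

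**Figure D3:**
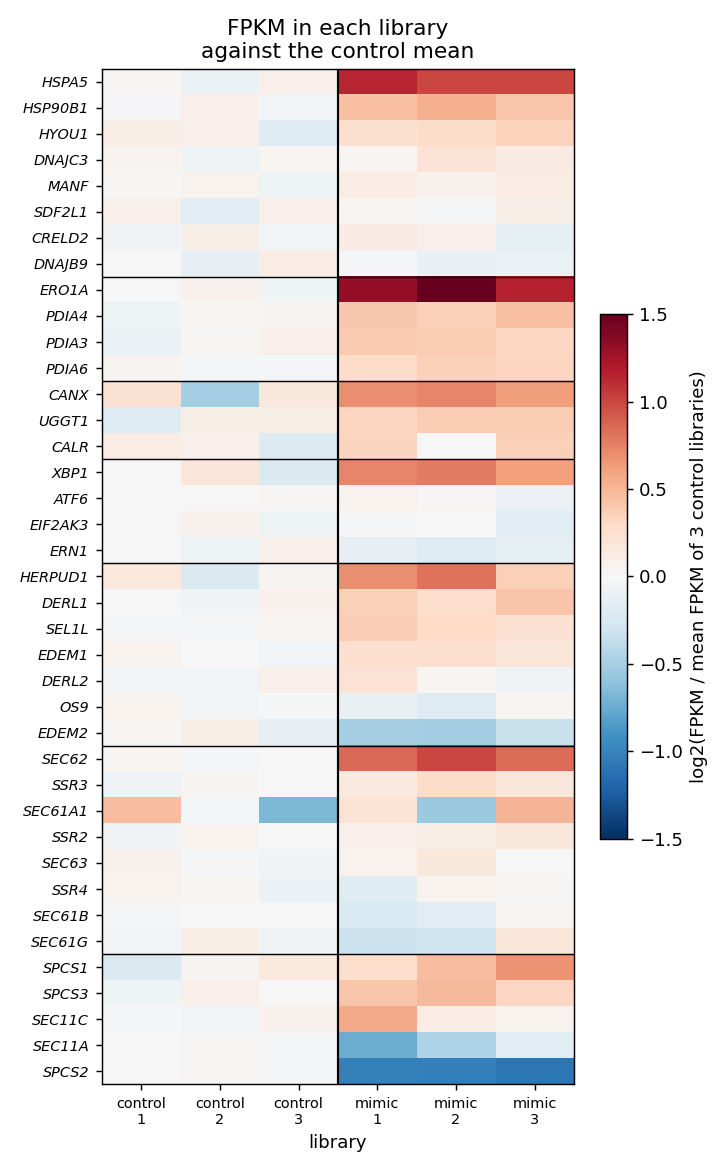
Log2 ratio of each library's FPKM to the mean of the 3 control libraries, with genes in rows by role and the 3 control and 3 mimic libraries in columns; red is above and blue below the control mean. ERO1A, HSPA5 and SEC62 are high in all 3 mimic libraries, SPCS2 is low in all 3, CANX is low in control replicate 2, and SEC61A1 varies within both groups.

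At the translocon SEC62 and SSR3 rose and the 3 subunits of the SEC61 channel did not pass. SEC62 encodes a channel partner that serves post-translational import and, as known from other cells, the clearance of excess reticulum after stress. The gene (ENSG00000008952) lies on chromosome 3 from 169966635 to 169998373. It measured 11.01, 10.5 and 10.8 FPKM in control and 19.4, 21.6 and 19.3 in mimic, 10.8 ± 0.239 and 20.1 ± 1.27 (SD, n = 3 each), 1.97-fold higher (log2 0.98 ± 0.06, edgeR adjusted p = 0.000114). In SEC63, the J-domain partner of SEC62, the groups overlapped at 13.9 ± 0.582 and 14.6 ± 0.931 FPKM (log2 0.15 ± 0.06, adjusted p = 0.133). The 3′ UTR of SEC63 holds the heptamer AGTACAA once, that of SEC62 the 3 sites printed above.

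SEC61A1 encodes the channel pore and varied more within groups than between them. It measured 65.6, 47.1 and 29.9 FPKM in control and 54.8, 32.5 and 67.9 in mimic (log2 0.20 ± 0.34, edgeR adjusted p = 0.714). Its highest library was 2.20 times the lowest in control and 2.09 times in mimic, the widest ratios among the 39 genes, whose medians were 1.10 and 1.12. RUVBL1, whose exons overlap those of SEC61A1 by 161 bases on the other strand, was steady at 18.4 ± 0.615 and 16.9 ± 0.215 FPKM. The small subunits SEC61B and SEC61G had log2 fold changes of -0.04 ± 0.08 and -0.05 ± 0.15. In both, mimic replicates 1 and 2 lay below all controls and mimic replicate 3 above them, SEC61G at 47.6, 52.4 and 47.3 FPKM in control and 39.1, 39.8 and 55.8 in mimic.

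SSR genes encode the translocon-associated protein complex, which helps some signal peptides open the channel. SSR3 measured 130.3, 139 and 135 FPKM in control and 149, 163 and 151 in mimic (1.21-fold, log2 0.27 ± 0.05, edgeR adjusted p = 0.0113). SSR2 did not overlap between groups, at 12.5 ± 0.455 and 13.5 ± 0.465 FPKM, and just missed the threshold (log2 0.19 ± 0.06, adjusted p = 0.0629); it passed in DESeq2 (adjusted p = 0.039) and over the genes with neither heptamer (0.0373). SSR4 had a log2 fold change of 0.04 ± 0.08. The merged row CAGE1/SSR1 measured 5.72, 5.44 and 8.96 FPKM in control and 10.1, 9.20 and 9.47 in mimic (log2 0.60 ± 0.19, adjusted p = 0.0612), and control replicate 3 lay close to the mimic libraries.

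The signal peptidase complex held the clearest split. SPCS2 fell while SPCS3, also an accessory subunit, rose. The accessory subunit SPCS1 was called higher too. That call ended for 4 of the 6 libraries when 1 was left out, and SPCS1 overlaps exons of NEK4, as given below. SPCS2 (ENSG00000118363) lies on chromosome 11 from 74949247 to 74979031. It measured 34.4, 34.6 and 33.6 FPKM in control and 16.9, 16.8 and 16.1 in mimic, 34.2 ± 0.543 and 16.6 ± 0.445 (SD, n = 3 each), a 1.95-fold lower level (log2 -0.96 ± 0.05, edgeR adjusted p = 9.05e-05). Its spread within groups was among the smallest and its adjusted p the lowest of the 39 genes. SPCS2P4, by its name a copy of SPCS2, could share reads with it, but their sequences were not compared. SPCS2P4 drew 365, 401 and 424 counts from the control libraries and 194, 200 and 191 from the mimic libraries (log2 -0.95, edgeR adjusted p = 0.00173). The 3′ UTR of SPCS2 held neither the miR-5001-5p seed match nor either heptamer.

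SPCS3 measured 10.2, 11.3 and 10.7 FPKM in control and 14.3, 15.1 and 13.3 in mimic (1.40-fold, log2 0.48 ± 0.07, edgeR adjusted p = 0.00386). The ratio of SPCS2 to SPCS3 in FPKM was 3.18 ± 0.151 in control and 1.17 ± 0.0478 in mimic (SD, n = 3 each). That of SPCS2 to SPCS1 was 5.56 ± 0.792 in control and 1.95 ± 0.321 in mimic. SPCS1 measured 5.36, 6.38 and 6.92 FPKM in control and 7.45, 8.58 and 9.89 in mimic (1.47-fold, log2 0.55 ± 0.14, adjusted p = 0.0309). Its groups were near to each other, and the call ended without control replicate 1 or 2 (adjusted p = 0.0821 and 0.0753) and without mimic replicate 2 or 3 (0.0763 and 0.0704). Exons of NEK4 on the other strand overlap those of SPCS1 by 2698 bases, and NEK4 was itself higher in mimic (log2 1.13 ± 0.13, adjusted p = 0.00161). The sources used here do not give whether counting used strand. Reads of the pair therefore cannot be told apart, and the part of NEK4 in the SPCS1 value was not tested.

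SEC11A and SEC11C encode the catalytic subunits. SEC11A measured 25.7, 26.1 and 25.5 FPKM in control and 15.3, 18.7 and 22.8 in mimic. All mimic libraries lay below the controls, but they were wide apart, and the gene did not pass (log2 -0.36 ± 0.14, edgeR adjusted p = 0.105). It passed in DESeq2 (adjusted p = 0.044), with total scaling (0.0498) and without mimic replicate 3 (log2 -0.52, adjusted p = 0.019). SEC11C was much lower, at 1.67 ± 0.0709 and 2.01 ± 0.412 FPKM, with a high mimic replicate 1 at 2.49 (log2 0.34 ± 0.16, adjusted p = 0.171).

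**Figure D4:**
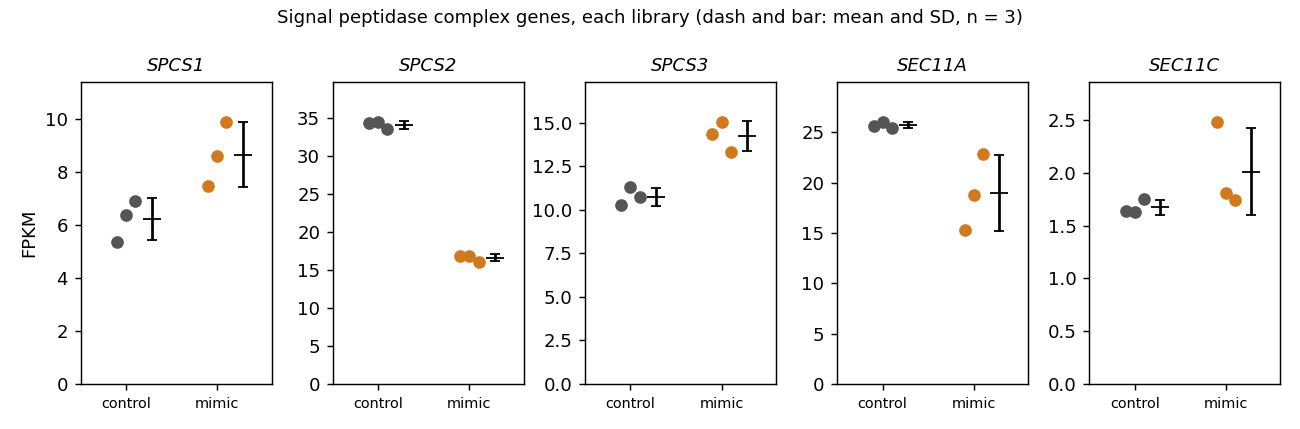
FPKM of the 5 signal peptidase genes in each library, with the mean and SD of 3 libraries beside the points and the axis from 0 in each panel. SPCS2 falls from 34.2 to 16.6 and SPCS3 rises from 10.7 to 14.2, while the mimic libraries of SEC11A spread from 15.3 to 22.8.

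By mean level over the 6 libraries, CALR, HSP90B1, HSPA5, CANX and SSR3 stood highest, and SEC11C, CRELD2, ERN1, DERL2 and EIF2AK3 lowest. The order changed between groups: in control CALR was at 224 ± 26.5 FPKM and HSPA5 at 133 ± 8.66, which is level with SSR3 at 135 ± 4.11 within their spread. In mimic HSPA5 at 276 ± 15.7 and CALR at 264 ± 35.7 did not differ beyond their spread, nor did HSP90B1 at 245 ± 10.9 and CANX at 232 ± 8.44.

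Other genes of the same pathways were looked up in 5 lists; 98 had a row of their own and 96 were tested. The shares called over all tested rows were 13.6% higher and 8.63% lower. Of the 96, 21 were higher and 5 lower, with a median log2 fold change of 0.05. The split depended on scaling, with 13 higher and 9 lower when libraries were scaled to their totals; without control replicate 2 the higher count was also 13. Of 14 genes of N-glycosylation and glycan trimming 4 were higher, among them the oligosaccharyltransferase genes MAGT1 (log2 0.95 ± 0.05, from 12.9 to 23.7 FPKM), STT3B (0.65 ± 0.05) and RPN2 (0.31 ± 0.04), and 0 were lower. Of 25 targeting and insertion genes 5 were higher and 4 lower. SRPRA and SRPRB, both subunits of the receptor for the signal recognition particle, rose (log2 1.08 ± 0.13 and 0.90 ± 0.09), SRPRA from 22.9 to 45.8 FPKM, as did MMGT1 (0.67 ± 0.10), a subunit of the membrane insertion complex EMC. SRPRB was near the filter, at 0.858, 0.970 and 0.843 FPKM in control and 1.68, 1.48 and 1.57 in mimic. It passed that filter only through the mimic libraries, where it is high, so its place among the higher genes is no independent support. ASNA1, current name GET3, and CAMLG, which insert tail-anchored proteins, were lower (log2 -0.36 ± 0.05 and -0.32 ± 0.07), as was TRAM2 (-0.14 ± 0.04). The TRAM2 call ended without any one of the 6 libraries. That of CAMLG ended with the replicate block (edgeR adjusted p = 0.0555), without control replicate 1 (0.0561) or 3 (0.06) and without mimic replicate 1 (0.0549).

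Counts by list are to be read beside the 13.6% of all tested rows called higher and the 8.63% called lower. Whether any list departs from these shares was not tested. Of the 21 tested genes in the list of other folding enzymes, 5 were higher and 1 lower. They include QSOX1, a sulfhydryl oxidase (log2 0.32 ± 0.04), HSPA13, an HSP70 of microsomes (0.49 ± 0.07), and the prolyl isomerase FKBP14 (0.38 ± 0.07), while FKBP7 of the same family fell (-0.62 ± 0.11). In degradation 4 of 20 were higher and 0 lower: ERLEC1, a lectin (log2 0.40 ± 0.05), FAM8A1, a cofactor of HRD1 (0.75 ± 0.10), the ATPase VCP (0.21 ± 0.04) and SELENOS (0.23 ± 0.06). In the wider stress response 3 of 16 were higher and 0 lower: EIF2S1, the eIF2α that PERK phosphorylates (0.42 ± 0.04), MBTPS1, a protease that cuts ATF6 (0.37 ± 0.07), and ATF4 (0.28 ± 0.08, edgeR adjusted p = 0.0459). The ATF4, VCP and SELENOS calls ended with total scaling, and when 1 library was left out they ended for 5, 2 and 5 of the 6 libraries. MAGT1, STT3B, SRPRA, SRPRB, FKBP14 and FAM8A1 carry AGTACAA or GTACAAA in the 3′ UTR. Of the 14 tested genes of these lists that do, these 6 were higher and 0 lower. Among all 1556 tested genes with either heptamer, 580 were higher and 40 lower. The heptamers came from a scan of these same fold changes, so the count is no independent support.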

How the data were processed

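The authors deposited raw counts and FPKM per gene or assembled locus for 6 libraries. The submitters' processing notes name cutadapt 1.9, FastQC and build GRCh38; for the aligner, counter, annotation and strandedness the sources used here give nothing. Each deposited FPKM equals the count divided by a fixed length per row and by the library total. Rows that name no gene (2.46 to 2.70% of counts) were left out; rows that name several genes (10.2 to 11.0%) were tested but are not members.

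Counts were tested with edgeR 4.0.16 (glmQLFit, glmQLFTest, TMM; R 4.3.3), all genes that reached 1 FPKM in 3 or more libraries in 1 two-sided fit, adjusted by Benjamini-Hochberg. Fold changes are mimic over control; standard errors are the absolute log2 fold change divided by the root of F. The fit was tested on simulated data. No library was a repeat of another: chi-square over degrees of freedom was 26.9 or more for each pair. Alternatives used DESeq2 1.42.0, limma 3.58.1 on log2(FPKM + 1) and log2(FPKM + 0.1), other scalings and filters, a replicate block and each library left out. Python 3.11.15, pandas 2.3.3, scipy 1.17.1 and matplotlib 3.10.9 handled tables and figures.

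Members and lists were chosen with earlier results of these data known. Values by library are given for members that passed; of the other lists, up to 3 genes a direction with the smallest p are named. Others named, such as SELENOS, P4HB, ERO1B and ERP29, and members singled out though they did not pass, were chosen after their values were seen.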

Additional observations from a re-analysis of the deposited data

How the results depend on the processing

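Of the 20 called members, 16 kept their direction and adjusted p under 0.05 in each of the 17 alternatives that tested them, and HYOU1, CANX, SPCS1 and EDEM2 did not. Members called higher numbered 13 to 19 over all alternatives, the 13 over genes with neither heptamer, which leaves out the 8 carriers. Members called lower were 1 with no filter and with the replicate block, and 1 to 3 when 1 library was left out. Other pathway genes called higher were 13 with total scaling and in limma on log2(FPKM + 1) and log2(FPKM + 0.1), and 13 to 18 when 1 library was left out. Those called lower were 9 with total scaling, 8 with upper quartile scaling and in DESeq2, 10 and 9 in limma with pseudocounts of 1 and 0.1, 3 with the replicate block, and 3 to 5 when 1 library was left out (3 without control replicate 1 or 3 or mimic replicate 1 or 2). Over all rows 973 were higher among genes with neither heptamer; lower rows were 1783 with total scaling, 1476 with upper quartile scaling, 1707 and 1680 in limma, and 503 to 854 when 1 library was left out (569, 588 and 503 without control replicates 1, 2 and 3, and 642 without mimic replicate 2). The share of all called rows that were higher was 61.2%, and 38.9% with total scaling; for members it was 90.0 and 85.7%. Replicate numbers are shared between groups, and same-numbered deviations from the group means correlated at -0.01, 0.07 and -0.05, so no shared replicate effect was seen. These values cannot show whether libraries were handled as pairs, which no label says. The replicate block gave 17 members higher and 1 lower. Apart from the causes given by how an alternative was built, the cause was not tested. Genes near 1 FPKM, such as CRELD2 and SEC11C, rest on the fewest counts.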
